A study of Homo sapiens with 42 samples.

Results

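Hairpins sh2 and sh5 were compared in SEM, a human B-cell acute lymphoblastic leukaemia (B-ALL) line in which both lower the transcript of NSD2. The comparison takes 6 of the study's 42 RNA sequencing samples, 3 libraries with sh2 and 3 with sh5, chosen by the hairpin in their titles, and asks what differs between 2 hairpins that lower the same transcript. Only sh2 is described in the study's text as the NSD2 knockdown; sh5 appears in sample titles alone and is read here as a second NSD2 hairpin, and its target was not given in the sources used here. A further 3 SEM libraries with a non-targeting hairpin (NT) show on which side of the untargeted level each hairpin lay. The same hairpins were sequenced in RS411 (RS4;11) and RCH (RCH-ACV), 3 libraries per hairpin and line, and the samples of other lines with added NSD2 enter no value below. SEM and RS4;11 carry a fusion of KMT2A with AFF1. All 3 lines are known to carry the E1099K substitution in their own NSD2, so the sh2, sh5 and NT cells share it. Hairpin sequences, the vector and the number of clones were not given in the sources used here, and no label says that replicates were separate cultures, so p-values measure only the spread between these libraries, which may be technical.

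NSD2, listed in the tables under its older name WHSC1, is an enzyme that adds methyl groups to a lysine of histone H3 within active genes, and the E1099K substitution, found in childhood leukaemia, raises its activity. A short hairpin RNA is cut by DICER1 into a guide strand with which AGO2 lowers the transcripts that the guide pairs with. Cells with 2 hairpins against 1 gene share the aimed-at transcript but not the guide.

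The SEM libraries held 32583013 to 39562010 reads on genes. Totals did not separate sh2 from sh5 (exact two-sided permutation test, p = 0.9, where 3 against 3 libraries cannot go below 0.1), nor did the mitochondrially encoded share, 0.093% to 0.116% with sh2 and 0.089% to 0.101% with sh5 (p = 0.6). The B-lineage genes PAX5 and CD79A were present throughout. Means in sh2 and sh5 cells were 568 and 579 CPM (counts scaled to library size) for PAX5 and 150.4 and 154 CPM for CD79A. The KMT2A fusion targets HOXA9, MEIS1 and FLT3 were present too. Other members of the B-lymphoid list were at or near 0. Among them MME, MS4A1 and CR2 had 0.068, 0.104 and 0 CPM with sh2 and 0.097, 0.548 and 0 CPM with sh5. Of 22 T and NK cell markers 4 passed the filter on low counts, with CD3D and CD3E at or near 0 and TRAC, LCK, ZAP70 and NKG7 at 65.3, 47.3, 54.5 and 14.1 CPM with sh2 and 70.4, 39.9, 69.0 and 18.9 CPM with sh5; the sum over the list was 177 to 185 CPM with sh2 and 182 to 218 CPM with sh5. Of 20 myeloid markers 8 passed, with CD14, MPO and S100A8 at or near 0, VCAN at 103 and 85.5 CPM and CSF1R at 40.1 and 43.7 CPM with sh2 and sh5, and sums of 125 to 192 and 136 to 162 CPM. Erythroid and megakaryocytic markers summed to 5.19 to 7.11 CPM with sh2 and 5.13 to 7.83 CPM with sh5, with HBB at 0, and stromal, epithelial and kidney markers to 162 to 168 and 152 to 173 CPM, with EPCAM and LUM at or near 0 and PDGFRB alone at 154 and 147 CPM. No marker sum separated the hairpins in the exact permutation test (p = 0.3 to 0.8). In such bulk samples fewer cells of a type and less RNA per cell cannot be told apart.

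NSD2 was lower with either hairpin than with NT, and it was lower with sh5 than with sh2. Its level, in CPM scaled by TMM factors as all levels below unless stated, was 166, 173 and 179 CPM in sh2 cells and 132, 146 and 146 CPM in sh5 cells, against 331, 335 and 364 CPM in NT cells. The 3 groups did not overlap. The sh2 cells lay above the sh5 cells by a log2 fold change of 0.29 ± 0.04 (SE), 1.22-fold, with an adjusted p of 5.5e-05 (edgeR quasi-likelihood F-test with the replicate number as a block, Benjamini-Hochberg over all genes). Against NT the log2 fold changes were -0.99 ± 0.04 with sh2 and -1.28 ± 0.04 with sh5, in contrasts that share the NT libraries. In the other lines the hairpins overlapped: NSD2 had 155, 157 and 254 CPM with sh2 and 167, 142 and 210.2 CPM with sh5 in RS411 (log2 fold change 0.11 ± 0.18, adjusted p = 0.794), and 142, 205 and 252 CPM with sh2 and 151, 227 and 209 CPM with sh5 in RCH (0.02 ± 0.15, adjusted p = 0.966).

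**Figure D1:**
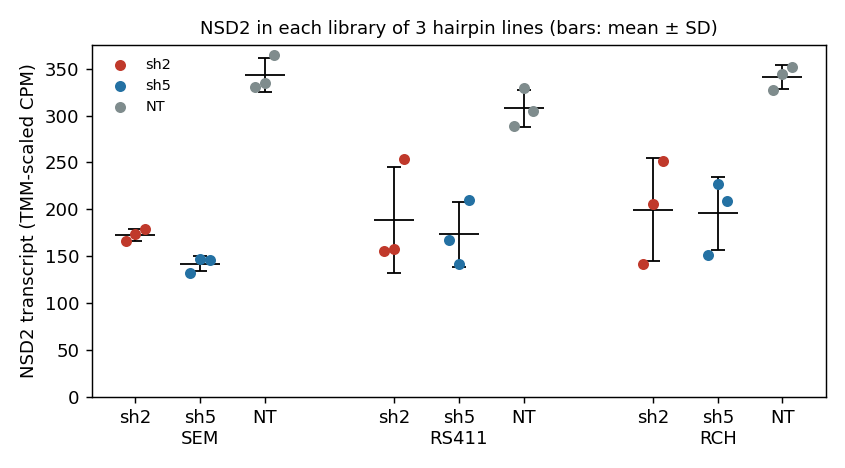
NSD2 transcript level (vertical axis, TMM-scaled CPM) in each sh2, sh5 and NT library of SEM, RS411 and RCH; points are libraries and bars the mean ± SD of 3 libraries. In SEM the sh2 libraries (166 to 179 CPM) lie above the sh5 libraries (132 to 146 CPM) and both lie below NT, while in RS411 and RCH the sh2 and sh5 points overlap.

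While NSD2 itself differed by 1.22-fold, 3532 of 17042 genes tested (20.7%) differed between the hairpins at an adjusted p under 0.05. Of these, 1482 were higher with sh2 (8.7% of genes tested) and 2050 lower with sh2 (12%), and 5297 genes had an unadjusted p under 0.05. Most differences were small: 1210 of the genes higher with sh2 and 1228 of those lower with sh2 changed by less than 1.5-fold. Larger ones lay mainly on the lower side, with 467 genes at least 2-fold lower with sh2 (2.74%) and 105 at least 2-fold higher (0.616%), and 166 against 15 at 4-fold or more. The 3 sh2 libraries did not overlap the 3 sh5 libraries for 1228 of the genes called higher and 1861 of those called lower, and for 29.7% of all genes tested. Without the replicate block the test called 2105 genes, 738 higher and 1367 lower with sh2, of which 2104 were among the 3532 in the same direction.

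The genes that were highest with sh2 relative to sh5 included a cytoskeletal protein of neural progenitors, several surface molecules and a transcriptional co-activator. NES, which encodes nestin, had 11.5, 12.1 and 12.1 CPM in sh2 cells and 1.82, 2.06 and 1.80 CPM in sh5 cells, against 1.02, 0.780 and 0.934 CPM in NT cells. No sh5 library reached the lowest sh2 library, and the log2 fold change was 2.65 ± 0.13, 6.27-fold (adjusted p = 1.93e-11). EYA4, a transcriptional co-activator with phosphatase activity, had 27.6, 29.2 and 27.9 CPM with sh2 and 8.15, 8.51 and 8.60 CPM with sh5, against 10.8, 12.5 and 10.0 CPM with NT. Its sh2 level thus lay above NT and its sh5 level below NT, and the hairpins differed by 1.75 ± 0.08 on the log2 scale (adjusted p = 6.36e-12). ADAM19, a membrane-bound metalloprotease, averaged 44.7 ± 4.75 CPM with sh2 and 15.7 ± 1.76 CPM with sh5 (SD, n = 3 each), and 15.5 ± 0.188 CPM with NT, so that its sh5 and NT means were close and its sh2 mean stood apart (log2 fold change 1.51 ± 0.08).

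SCML1, a Polycomb-related gene, showed the other pattern, with 33.2, 31.2 and 30.8 CPM in sh2 cells and 13.9, 12.4 and 13.0 CPM in sh5 cells, against 34.6, 31.0 and 30.5 CPM in NT cells. Its sh2 and NT libraries overlapped and its sh5 libraries lay below both (sh2 over sh5, 1.28 ± 0.06). ITGAX, the integrin chain CD11c, averaged 14.4 ± 3.08 CPM with sh2, 5.20 ± 0.720 CPM with sh5 and 3.04 ± 1.28 CPM with NT, and IFNLR1, the specific chain of the interferon lambda receptor, 10.9 ± 1.01, 4.27 ± 1.32 and 2.52 ± 0.410 CPM in the same order. Both were above NT with either hairpin, and further above with sh2. The other genes of the 12 highest were IGLL5, CTSW (a protease of cytotoxic lymphocytes), TGFB1I1 (a focal adhesion adaptor), LINC00461 (a long noncoding RNA), TTC38 and ACY3, with log2 fold changes of 1.25 to 2.43. Reads of IGLL5 may be shared with near-identical immunoglobulin lambda genes, so its value is uncertain. TTC38 was called narrowly (adjusted p = 0.0494). It was not called without any 1 of sh2 replicates 1 and 2, sh5 replicates 1 and 2 and NT replicates 1 to 3 (adjusted p = 0.0790 to 0.182), nor with the 6 libraries alone (0.159) or with RLE factors.

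The genes lowest with sh2 relative to sh5 included the teneurins TENM3 and TENM4 and the cadherin CDH2, beside signalling, trafficking and transcription factor genes. TENM3, a teneurin, which joins nerve cells across the synapse, had 1.25, 1.22 and 0.604 CPM in sh2 cells and 18.1, 26.8 and 29.4 CPM in sh5 cells, against 6.42, 5.38 and 6.03 CPM in NT cells. The sh2 libraries lay below NT and the sh5 libraries above NT, and the hairpins differed by -4.58 ± 0.29 on the log2 scale, 23.9-fold (adjusted p = 5.71e-05). PLCB1, a phospholipase that signals downstream of G protein-coupled receptors, had 0.972, 0.816 and 0.787 CPM with sh2 and 13.9, 15.8 and 16.9 CPM with sh5, against 1.68, 1.45 and 1.79 CPM with NT. ITGA9, the integrin alpha 9 chain, had 2.89, 3.01 and 3.36 CPM with sh2 and 30.9, 28.0 and 28.4 CPM with sh5, against 4.09, 3.52 and 3.90 CPM with NT. For PLCB1 and ITGA9 the sh2 libraries lay below NT, with means of 0.858 against 1.64 CPM and 3.09 against 3.84 CPM. The sh5 level was several-fold above NT, by log2 fold changes of 3.24 ± 0.13 and 2.92 ± 0.09.

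In other genes both hairpins lay below NT and sh2 went further. CDH2, or N-cadherin, had 4.17, 3.29 and 3.20 CPM in sh2 cells and 31.4, 32.6 and 31.0 CPM in sh5 cells, against 63.2, 59.1 and 65.3 CPM in NT cells. The 3 groups were ordered without overlap, and sh2 and sh5 differed by -3.15 ± 0.09 on the log2 scale, 8.88-fold (adjusted p = 9.86e-15). PTPRK, a receptor-type tyrosine phosphatase, averaged 1.16 ± 0.160 CPM with sh2, 9.35 ± 1.04 CPM with sh5 and 45.4 ± 3.32 CPM with NT. TENM4, another teneurin, averaged 0.623 ± 0.122, 8.53 ± 0.974 and 11.8 ± 1.56 CPM in that order, and WLS, which carries Wnt proteins to the cell surface, 0.542 ± 0.116, 6.28 ± 0.484 and 10.3 ± 0.685 CPM. These genes were called lower than NT with sh5 too. MYRIP, which links secretory vesicles to myosin, averaged 1.85 ± 0.397 CPM with sh2, 18.7 ± 1.18 CPM with sh5 and 17.1 ± 0.578 CPM with NT, and KIF21A, a kinesin, 6.70 ± 2.10, 48.1 ± 3.24 and 42.9 ± 5.94 CPM. Both were low with sh2 and were not called between sh5 and NT. SNX7, a sorting nexin, and TEX15, a gene of male meiosis, completed the 12 lowest, with sh2 over sh5 at -3.12 ± 0.18 and -2.85 ± 0.09.

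**Figure D2:**
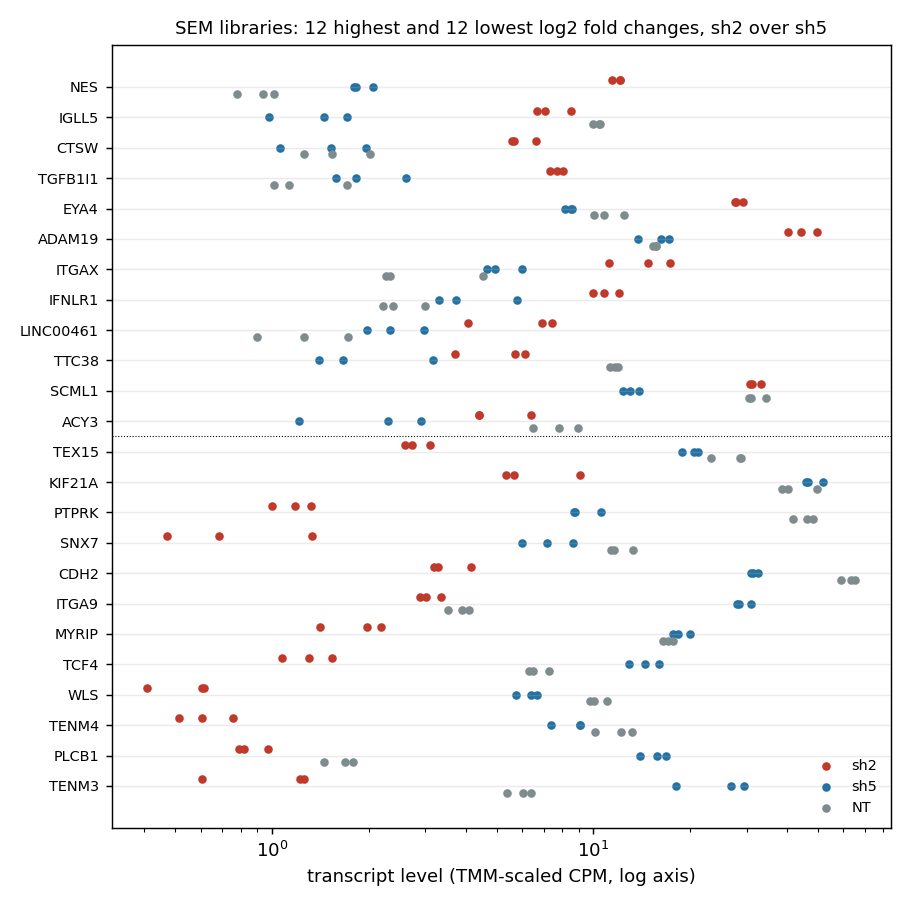
Level in each SEM library (horizontal axis, TMM-scaled CPM on a log axis) of the 12 genes highest and the 12 genes lowest with sh2 relative to sh5, above and below the dotted line; points are libraries with sh2, sh5 or NT. No sh2 point overlaps the sh5 points of the same gene, which the choice of these genes required, and NT lies above, between or below them depending on the gene.

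Some genes moved away from NT in opposite directions with the 2 hairpins, each contrast being called and sharing the NT libraries. TCF4, a transcription factor of early B cells and dendritic cells, had 1.31, 1.54 and 1.08 CPM in sh2 cells and 14.5, 12.9 and 16.0 CPM in sh5 cells, against 6.30, 6.51 and 7.26 CPM in NT cells. NT thus lay between the hairpins, with log2 fold changes against NT of -2.37 for sh2 and 1.11 for sh5. The same held for MAGI1, a scaffold of cell junctions, with means of 7.84, 33.1 and 23.2 CPM in sh2, sh5 and NT cells, and for SPATS2L, with 12.2, 40.5 and 26.6 CPM. BAZ2B, a chromatin reader, had 4.56, 22.2 and 19.5 CPM. In the other direction were CYSLTR1, a leukotriene receptor, with 46.3, 20.7 and 33.4 CPM in sh2, sh5 and NT cells, ATP10A, a lipid flippase, with 39.4, 17.5 and 23.6 CPM, and TPCN1, an endolysosomal channel, with 24.0, 11.3 and 14.7 CPM. MAST3 and FAM49A were also above NT with sh2 and below it with sh5.

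Among lists of genes with a shared role, the direction of the difference depended on the list. List counts below stand beside 8.7% of all genes called higher and 12% called lower with sh2. The list of ERK feedback and immediate early genes had the largest share of members higher with sh2: of 30 tested, 16 were higher and 2 lower, against 8.7% and 12% of all genes, with a median log2 fold change of 0.21 against 0.004 over all genes. SPRED1, which restrains RAS signalling, had 93.0, 90.5 and 83.5 CPM in sh2 cells and 64.9, 65.1 and 69.3 CPM in sh5 cells, against 78.5, 82.1 and 79.7 CPM in NT cells, a log2 fold change of 0.42 ± 0.05. Its groups did not overlap. FOS, a subunit of the AP-1 transcription factor, had 130.3, 36.1 and 91.2 CPM with sh2 and 94.9, 25.5 and 61.6 CPM with sh5, against 54.6, 21.7 and 49.4 CPM with NT. Replicate 2 was low and replicate 1 high in every group, so the groups overlapped, while within each replicate number sh2 lay above sh5 (0.50 ± 0.10, adjusted p = 0.00618). EGR3, a zinc finger factor induced by receptor signalling, also overlapped between the hairpins, while sh2 lay above sh5 within each replicate number. It had 21.7, 11.1 and 13.6 CPM with sh2 and 13.1, 5.43 and 5.40 CPM with sh5 (1.00 ± 0.16).

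EGR1, the best known member of that family, varied from 19.3 to 100.2 CPM among sh2 libraries and was not called (0.48 ± 0.19, adjusted p = 0.181), nor was JUN. SPRY1, another inhibitor of RAS signalling, went the other way, at 2.20, 1.63 and 2.47 CPM in sh2 cells and 6.78, 6.21 and 8.76 CPM in sh5 cells, against 9.03, 10.7 and 13.1 CPM in NT cells (-1.78 ± 0.13). SPRY4 and SPRY2 were among the genes higher with sh2, and neither was called without the block (adjusted p = 0.0832 and 0.482), nor were FOS (0.756) and EGR3 (0.242). The count for this list depended on the replicate block, with 2 higher and 1 lower without it. It also fell without any 1 sh2 or sh5 library, most without replicate 1. There were 7, 13 and 11 higher members without sh2 replicates 1, 2 and 3. Without sh5 replicates 1, 2 and 3 there were 9, 11 and 11.

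**Figure D3:**
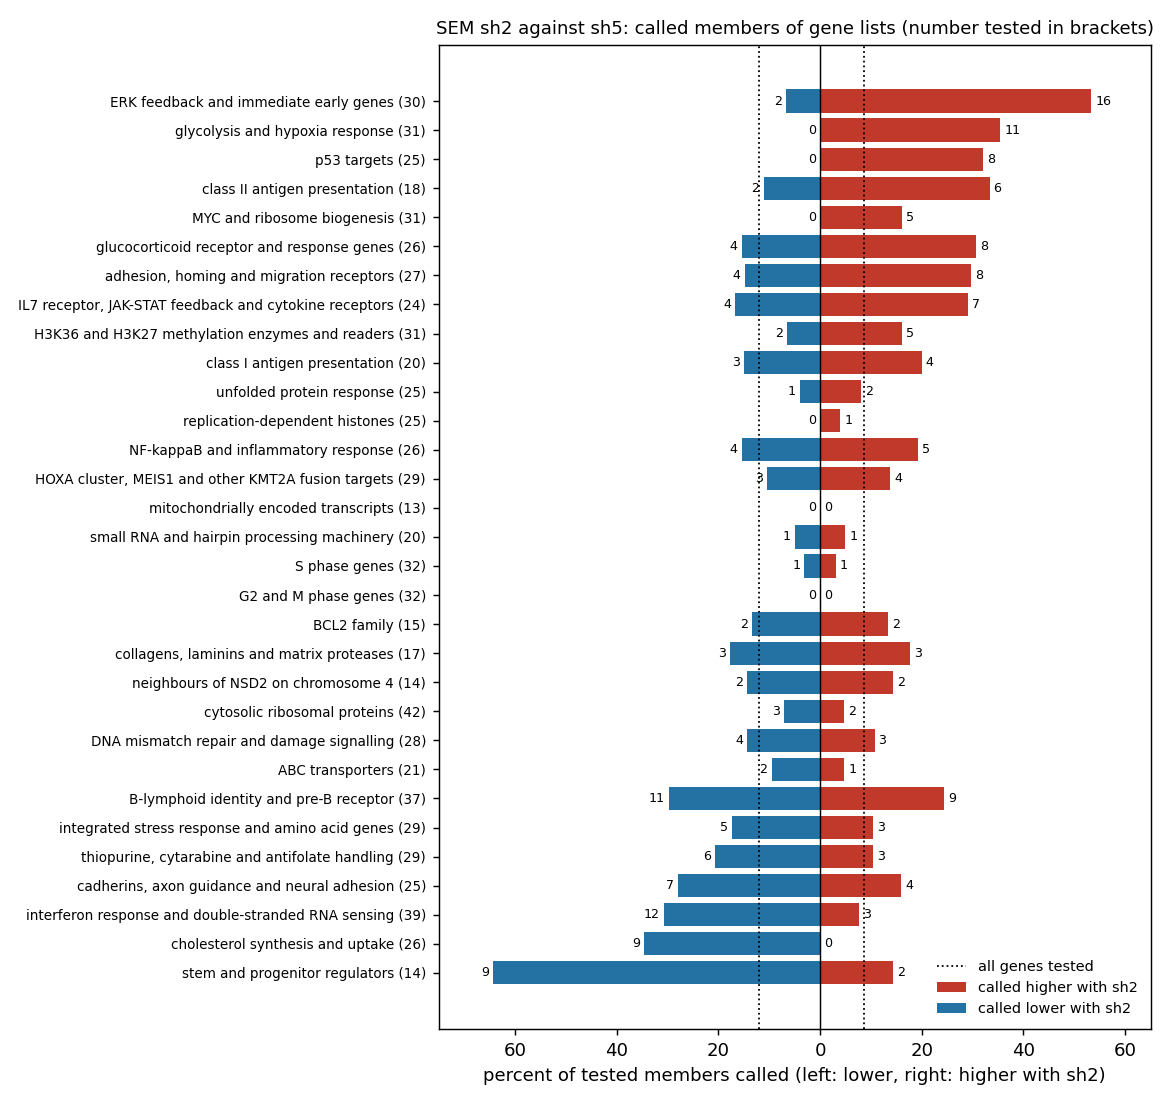
Percent of the tested members of each gene list that were called lower (left) or higher (right) with sh2 relative to sh5 in SEM, with the number of members at the end of each bar, the number tested in brackets and dotted lines at the shares over all genes (12% lower, 8.7% higher). ERK feedback and immediate early genes lie furthest to the right, with 16 of 30, and the small list of stem and progenitor regulators furthest to the left, with 9 of 14.

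Of 39 interferon response genes tested, 12 were lower with sh2, that is, higher with sh5, 3 were higher and 24 were not called, with a median log2 fold change of -0.12, and 8 and 3 without the replicate block. The count of lower members was 7 without sh2 replicate 3 and 7 without sh5 replicate 3. Interferon receptors act through transcription factors that bind a short promoter element, searched here as GAAA, any 2 bases and GAAA again. The promoters of 3 members are shown as examples, from 250 bases before to 50 after the transcription start in RefSeq on GRCh38.p14, with matches to the element on either strand in capitals. They lie at chr15:88638766-88639065 (ISG20, plus strand), chr10:89392373-89392672 (IFIT1, plus strand) and chr11:320811-321110 (IFITM3, minus strand).
ISG20: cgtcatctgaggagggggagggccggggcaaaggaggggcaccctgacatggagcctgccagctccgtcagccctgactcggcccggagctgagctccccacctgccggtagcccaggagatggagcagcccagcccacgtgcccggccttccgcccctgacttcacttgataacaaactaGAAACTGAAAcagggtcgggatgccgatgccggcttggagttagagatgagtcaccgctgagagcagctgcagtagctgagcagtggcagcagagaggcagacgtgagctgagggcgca
IFIT1: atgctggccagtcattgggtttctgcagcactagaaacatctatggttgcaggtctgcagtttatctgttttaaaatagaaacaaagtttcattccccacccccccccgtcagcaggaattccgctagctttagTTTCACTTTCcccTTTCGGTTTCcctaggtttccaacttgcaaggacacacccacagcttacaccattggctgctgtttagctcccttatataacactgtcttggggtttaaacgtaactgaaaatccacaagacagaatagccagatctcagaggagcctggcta
IFITM3: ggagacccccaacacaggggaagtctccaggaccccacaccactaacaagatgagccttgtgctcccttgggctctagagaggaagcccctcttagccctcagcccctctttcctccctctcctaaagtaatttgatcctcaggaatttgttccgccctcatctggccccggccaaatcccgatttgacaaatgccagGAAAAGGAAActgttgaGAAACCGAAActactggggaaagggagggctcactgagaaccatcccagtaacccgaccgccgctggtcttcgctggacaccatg

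ISG20, an exonuclease that degrades viral RNA, differed most among the members called, with 20.0, 18.8 and 20.5 CPM in sh2 cells and 45.5, 42.2 and 45.2 CPM in sh5 cells, against 22.1, 25.7 and 22.4 CPM in NT cells. Its sh2 level was near that of NT, and sh5 stood above both (sh2 over sh5, -1.16 ± 0.07, adjusted p = 3.5e-10). IFIT1, which binds foreign RNA, was scarce, at 1.33, 1.04 and 1.68 CPM with sh2 and 2.87, 1.90 and 2.75 CPM with sh5, against 1.19, 0.565 and 1.495 CPM with NT (-0.90 ± 0.20, not called without the block, adjusted p = 0.0615), and IFIT2 averaged 4.39 ± 0.248, 8.42 ± 1.42 and 6.57 ± 0.752 CPM. HERC5, which attaches the ubiquitin-like protein ISG15 to its targets, averaged 27.9 ± 1.30 CPM with sh2, 38.9 ± 0.711 CPM with sh5 and 36.9 ± 1.36 CPM with NT. IFITM3, OAS2 and USP18 went the other way, the last at 13.3 ± 1.35, 8.12 ± 0.981 and 7.95 ± 1.12 CPM in sh2, sh5 and NT cells. IFITM3 has the near copy IFITM2, so its value is uncertain. The double-stranded RNA sensors IFIH1 and EIF2AK2 were not called. A promoter window was at hand for 8 of the 12 genes lower with sh2, 1 of the 3 higher and 19 of the 24 not called. It held the element in 5, 1 and 13 of them, against 3.00% of the 9642 tested genes with a window. Over all 27305 promoters searched, tested here or not, the share was 3.65%. The element thus occurred in called and uncalled members alike.

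Cholesterol synthesis genes were lower with sh2 where they differed: 9 of 26 were lower and 0 higher by edgeR and by DESeq2, and 12 had an unadjusted p under 0.05. SREBF2, the transcription factor that drives this pathway, had 173, 212.5 and 188 CPM in sh2 cells and 216, 250.4 and 247 CPM in sh5 cells, against 236, 264 and 300.4 CPM in NT cells (-0.31 ± 0.05). SQLE, squalene epoxidase, had 211, 220.3 and 198 CPM with sh2 and 232, 261 and 280 CPM with sh5, against 263, 288 and 275 CPM with NT (-0.29 ± 0.05). For both genes the highest sh2 library lay below the lowest sh5 library. The count of lower members was 5 without the replicate block and 6 without sh5 replicate 3. Without sh2 replicate 3 it was 4, and 1 member was higher.

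Glycolysis and hypoxia genes differed in the opposite direction, with 11 of 31 higher with sh2 and 0 lower by edgeR and by DESeq2, and 14 at an unadjusted p under 0.05. PFKL, a phosphofructokinase subunit, had 467, 435 and 438 CPM in sh2 cells and 364, 356 and 404 CPM in sh5 cells, against 385, 403 and 410 CPM in NT cells, without overlap between the hairpins (0.26 ± 0.05). PFKFB4, which makes the activator of phosphofructokinase, had 61.4, 74.5 and 107 CPM with sh2 and 45.9, 52.0 and 89.3 CPM with sh5, and SLC16A3, the lactate exporter, 84.6, 111.5 and 145 CPM with sh2 and 63.5, 82.8 and 127 CPM with sh5. In both, replicate 3 was high in each group, so that the hairpins overlapped and separated only within a replicate number. The count was 1 without the block, 6 without replicate 2 of either hairpin and 7 without sh5 replicate 3. The list held 1 lower member without sh2 replicate 2, without NT replicate 1 or 2, without the filter and with the 6 libraries alone.

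Targets of p53 were higher with sh2 in 8 of 25 by edgeR and 7 by DESeq2 and lower in 0 by either, with 11 at an unadjusted p under 0.05. SESN1, a stress-induced inhibitor of mTOR signalling, had 100.6, 112 and 111 CPM in sh2 cells and 79.9, 76.8 and 82.1 CPM in sh5 cells, against 43.7, 44.5 and 42.5 CPM in NT cells. The order sh2 above sh5 above NT held in every library (sh2 over sh5, 0.44 ± 0.05). BTG2, which slows division, averaged 33.8 ± 3.70 and 24.5 ± 3.91 CPM with sh2 and sh5, and CDKN1A, the cell cycle inhibitor p21, 188 ± 10.7 and 169.8 ± 1.66 CPM (0.15 ± 0.04; not called without the block, adjusted p = 0.0902). MDM2, the p53 antagonist, was not called. The list's count was 2 without the block, 3 without sh2 replicate 1 and 5 without replicate 2 of either hairpin. Glucocorticoid response genes were higher with sh2 in 8 of 26 and lower in 4, and no higher member was called without the block, where edgeR left the 4 lower ones, while DESeq2 with the block called 6 higher; leaving out any 1 sh2 library or sh5 replicate 2 or 3 left 4 or 5 higher. NR3C1, the glucocorticoid receptor, was lower with sh2, at 187, 213 and 214 CPM in sh2 cells and 238, 244 and 244 CPM in sh5 cells, against 199.7, 223 and 211 CPM in NT cells (-0.24 ± 0.04). TXNIP and TSC22D3, which the receptor induces in lymphoid cells, were higher with sh2 (0.41 ± 0.07 and 0.26 ± 0.07) with overlapping libraries.

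B-lymphoid genes divided, with 9 of 37 higher and 11 lower with sh2, 54.1% in all against 20.7% of all genes. IRF4, a factor of late pre-B and plasma cells, had 66.2, 64.1 and 60.9 CPM in sh2 cells and 112.7, 110.7 and 118 CPM in sh5 cells, against 140.4, 157 and 134 CPM in NT cells (-0.84 ± 0.05). Its relative IRF8 had 266, 274 and 284 CPM with sh2 and 223, 227 and 217 CPM with sh5, against 131, 137 and 138 CPM with NT (0.30 ± 0.04). The 2 factors thus differed between the hairpins in opposite directions, and for both the sh5 cells lay between sh2 and NT. CD38, a surface enzyme, had 12.1, 9.66 and 7.61 CPM with sh2 and 26.2, 18.8 and 17.1 CPM with sh5, and RAG2, a subunit of the recombinase of antigen receptor genes, 2.10, 2.82 and 3.20 CPM with sh2 and 6.91, 7.25 and 9.13 CPM with sh5, against 2.12, 1.61 and 2.64 CPM with NT. RAG2 and BLNK, the adaptor of pre-B receptor signalling, were called above NT with sh5 (1.87 and 1.19 on the log2 scale) and were not called against NT with sh2 (0.35 and -0.40). BTK, a kinase of B cell receptor signalling, SPIB and CD40 were higher with sh2, while PAX5 and EBF1, which fix the B lineage, were not called (-0.02 ± 0.05 and -0.03 ± 0.04).

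Of 14 stem and progenitor regulators tested, 9 were lower with sh2 and 2 higher, with a median of -0.28, while 9 listed genes were too low to test. Their log2 fold changes ran from -2.51 to 1.93, and the members given next were all lower with sh2. GFI1, a repressor in blood stem cells, had 17.9, 15.9 and 17.0 CPM in sh2 cells and 29.6, 29.0 and 31.0 CPM in sh5 cells, against 24.7, 24.6 and 21.9 CPM in NT cells (-0.82 ± 0.07). MYB averaged 212 ± 17.2 and 257 ± 11.2 CPM with sh2 and sh5, and 258 ± 19.0 CPM with NT. ERG averaged 67.1 ± 3.16, 86.2 ± 3.19 and 88.6 ± 5.91 CPM and BMI1, a Polycomb subunit, 34.3 ± 2.65 and 43.9 ± 2.05 CPM with sh2 and sh5. Among KMT2A fusion targets 4 of 29 were higher and 3 lower, 24.1% in all against 20.7% of all genes. PBX3, a homeobox partner, was lower with sh2 (52.9 ± 2.52 against 85.8 ± 2.11 CPM with sh5) and LGALS1, galectin 1, higher (525 ± 31.6 against 379 ± 41.6 CPM), while HOXA9, MEIS1 and FLT3 were not called. IL7R, the receptor for the main growth factor of B precursors, had 220.6, 225 and 230.2 CPM with sh2 and 279.9, 272 and 296 CPM with sh5, against 328, 326 and 309.6 CPM with NT (-0.33 ± 0.05). Of the 24 genes of its receptor and JAK-STAT list 7 were higher and 4 lower with sh2, and 4 and 4 without the block or without sh2 replicate 1.

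Adhesion and homing receptors were higher with sh2 in 8 of 27 and lower in 4, 44.4% in all against 20.7% of all genes. CD9, a tetraspanin, had 83.3, 87.4 and 84.2 CPM in sh2 cells and 46.9, 42.5 and 54.4 CPM in sh5 cells, against 83.3, 92.3 and 93.2 CPM in NT cells. Its sh2 and NT libraries overlapped and its sh5 libraries lay apart (0.83 ± 0.06, adjusted p = 1.15e-07). ITGB2, which pairs with the CD11 chains, had 205, 224 and 199 CPM with sh2 and 154, 164 and 174 CPM with sh5, against 109.8, 124 and 124 CPM with NT (0.35 ± 0.05). ITGA6, which binds laminin, averaged 84.0 ± 5.21 CPM with sh2, 67.1 ± 8.23 CPM with sh5 and 23.5 ± 2.58 CPM with NT, so that both hairpins lay well above NT. Among 25 cadherin and axon guidance genes tested 7 were lower and 4 higher with sh2, and 4 and 2 without the block, with 4 lower without any 1 sh2 library; 16 listed genes were too low to test. Beside CDH2 the genes called included EPHB4, an ephrin receptor, higher with sh2 (56.3 ± 1.63 against 39.3 ± 3.69 CPM with sh5), and ROBO1, an axon guidance receptor, slightly lower (208 ± 4.65 against 230.3 ± 5.27 CPM; not called without the block, adjusted p = 0.143).

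Antigen presentation genes were called in both directions, in 44.4% of class II and 35% of class I genes tested, against 20.7% of all genes. Of 18 class II genes 6 were higher and 2 lower, and without sh2 replicate 1 there were 3 higher. HLA-DPA1 had 287, 315 and 279 CPM in sh2 cells and 238, 239.8 and 242 CPM in sh5 cells, against 194, 212 and 197 CPM in NT cells, in that order without overlap (0.29 ± 0.04). HLA-DRB1 and HLA-DRB5 share near-identical sequence, so their calls are uncertain. Of 20 class I genes 4 were higher and 3 lower. NLRC5, the transactivator of class I genes, averaged 76.0 ± 3.24 CPM with sh2, 60.1 ± 6.25 CPM with sh5 and 32.1 ± 0.737 CPM with NT, and HLA-B 809 ± 38.6, 705 ± 14.9 and 464 ± 11.9 CPM. For HLA-B, NLRC5 and HLA-F the difference between hairpins was smaller than that of either hairpin from NT.

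Among 31 genes of histone H3 lysine methylation 5 were higher with sh2, NSD2 included, and 2 lower, 22.6% in all against 20.7% of all genes. NSD1, a relative of NSD2, had 119.8, 137 and 128 CPM in sh2 cells and 133, 133 and 135 CPM in sh5 cells and was not called (-0.06 ± 0.05), nor were SETD2 and EZH2. DNMT3B, a DNA methyltransferase, was higher with sh2, at 31.0, 33.8 and 34.3 CPM against 20.8, 23.5 and 23.7 CPM with sh5 (0.55 ± 0.06, adjusted p = 1.3e-06). Among 20 genes of small RNA and hairpin processing 1 was higher (XPO5, which exports hairpin precursors from the nucleus, 0.21 ± 0.04) and 1 lower (LIN28B, a binder of let-7 precursors, -0.52 ± 0.10), and DICER1, DROSHA and AGO2 were not called. LIN28B also stood in the marker list of kidney packaging cells and was the 1 member of it that was called; it was not called without the block. Of 14 neighbours of NSD2 on chromosome 4 there were 2 higher and 2 lower, 28.6% in all against 20.7% of all genes, with sizes up to -0.78 ± 0.12 for NAT8L.

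Genes of cell death, drug handling and repair divided between both directions. In the BCL2 family BMF, a death-promoting member, had 41.6, 46.4 and 51.4 CPM in sh2 cells and 74.9, 74.1 and 85.3 CPM in sh5 cells, against 75.5, 77.1 and 92.2 CPM in NT cells (-0.75 ± 0.05), while BCL2 and MCL1 were not called; 2 of 15 were higher and 2 lower. Among 29 genes of thiopurine, cytarabine and antifolate handling 3 were higher and 6 lower with sh2, and 1 and 2 without the block. GGH, which trims folate chains, averaged 77.4 ± 2.86 and 100.6 ± 5.28 CPM with sh2 and sh5, and TPMT, which inactivates thiopurines, 6.83 ± 0.551 and 9.73 ± 1.27 CPM. MSH6, a subunit of the mismatch sensor, was slightly higher with sh2 (0.20 ± 0.04), among 3 higher and 4 lower of 28 repair genes. ABC transporters held 1 higher and 2 lower of 21, and NF-kappaB genes 5 higher and 4 lower of 26. The share called was 26.7% of the BCL2 family, 31% of the drug handling genes, 25% of the repair genes, 14.3% of the ABC transporters and 34.6% of the NF-kappaB genes, against 20.7% of all genes. These small counts moved when 1 library was left out. Drug handling genes numbered 5 higher and 3 lower without sh5 replicate 2, 1 higher and 2 lower without sh2 replicate 1, and 2 lower without sh2 replicate 2 or 3, and the lower repair genes numbered 2 without sh2 replicate 1 or 2 or sh5 replicate 1 or 3.

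Cell cycle, histone, ribosomal and mitochondrial lists held a smaller share of calls than the 20.7% over all genes. Of 32 G2 and M phase genes 0 were called by edgeR, 0 by DESeq2 and 1 had an unadjusted p under 0.05. Of 32 S phase genes CCNE2 was lower and UHRF1 higher, and 1 of 25 histone genes and 5 of 42 ribosomal protein genes were called. No mitochondrially encoded transcript of 13 was called by edgeR or DESeq2, with 1 at an unadjusted p under 0.05. MYC itself was not called (0.09 ± 0.04, adjusted p = 0.154), while 5 of the 31 genes of its list were higher with sh2 and 1 without the block, and 1 to 3 of them without any 1 sh2 library or sh5 replicate 3. The integrated stress response, with 3 higher and 5 lower of 29, held 0 called genes without the block 4 higher and 1 lower without sh2 replicate 3 and 3 higher and 1 lower without sh5 replicate 3, and the unfolded protein response had 2 higher and 1 lower of 25. It held 0 called genes without sh2 replicate 1. Of 17 collagen, laminin and protease genes 3 were higher and 3 lower, with 7 lower without sh5 replicate 1, 1 lower without the block and 1 higher without replicate 2 of either hairpin. Among tested markers of other cell types, 2 of 4 T and NK cell, 2 of 8 myeloid, 1 of 4 erythroid and 1 of 4 stromal genes were called. ZAP70, a kinase of T cells that B-ALL cells can express, was lower with sh2 (54.9 ± 0.344 against 69.2 ± 5.37 CPM with sh5), as were NKG7 and the platelet gene GP9, and LYZ, the myeloid lysozyme, had 0.793, 1.69 and 1.55 CPM with sh2 and 3.24, 7.68 and 6.48 CPM with sh5, against 0.813, 1.13 and 1.495 CPM with NT (-2.10 ± 0.17), while CD33 was higher with sh2 (0.65 ± 0.11) and CD14 and MPO stayed at or near 0.

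Genes with a long span in the genome were lower with sh2 more often than short ones. Among protein-coding genes the share called lower was 8.26% under 10 kb, 9.54% at 10 to 30 kb, 14.8% at 30 to 100 kb, 30.1% at 100 to 300 kb and 46.3% over 300 kb, where 209 of 451 were lower and 23 higher. The share called higher was 8.99%, 11.9%, 13.3%, 9.88% and 5.10% in the same order. The median span was 68.4 kb for the genes called lower and 32.6 kb for those called higher, against 30.8 kb for all protein-coding genes tested. Restricted to genes with a mean of at least 5 CPM, a choice made after seeing the data, 46.5% of 271 genes over 300 kb were lower. Against NT the share lower over 300 kb was 59.9% with sh2 and 43.0% with sh5, against 21.9% and 18.0% of all protein-coding genes, in contrasts that share the NT libraries. TENM3 (1355412 bases), MACROD2, NRXN3, MAGI2, DPP10 and GPHN were among the longest genes called lower; DPP10 averaged 6.36 and 15.1 CPM with sh2 and sh5, and GPHN, a synaptic scaffold, 8.78 and 18.2 CPM. Genes over 300 kb held 1.56%, 1.67% and 1.67% of all reads in sh2 cells and 1.80%, 1.74% and 1.78% in sh5 cells, against 1.66%, 1.87% and 1.78% in NT cells. RNA quality values per library were not given in the sources used here, and their part in this pattern was not tested. Spans came from RefSeq on GRCh38 and were found for 82.9% of genes tested and for 95.6% of those called.

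**Figure D4:**
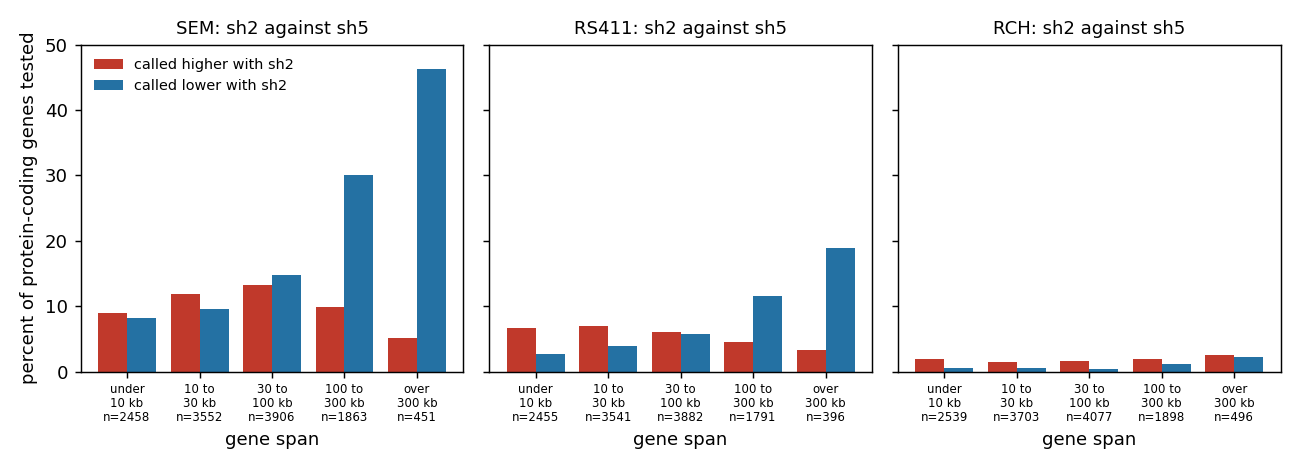
Percent of protein-coding genes called higher or lower with sh2 relative to sh5 (vertical axis) by the genomic span of the gene (horizontal axis, with the number tested), in SEM, RS411 and RCH. In SEM the share called lower is 8.26% under 10 kb and 46.3% over 300 kb, in RS411 2.69% and 18.9%, and in RCH 0.512% and 2.22%.

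Fewer genes were called between the same hairpins in the other lines, whose libraries the SEM comparison does not use. In RS411 1555 of 17165 genes (9.06%) were called, 774 higher and 781 lower with sh2, and in RCH 343 of 17468 (1.96%), 257 higher and 86 lower. Both counts rested on the replicate block, without which 99 genes were called in RS411 and 0 in RCH, where 1714 genes had an unadjusted p under 0.05; in RCH not every pair of libraries with the same number deviated together. Of the SEM genes higher with sh2 and tested in RS411, 212 of 1417 (15%) were higher there too, against 4.51% of all genes. Another 40 (2.82%) were lower there, against 4.55% of all genes. Of those lower in SEM, 362 of 1822 (19.9%) were lower in RS411, against 4.55%, and 54 (2.96%) higher, against 4.51%. The genes called alike made up 27.4% and 46.4% of the RS411 genes called in that direction. In RCH the shares called alike were 60 of 1408 (4.26%, against 1.47%) and 40 of 1878 (2.13%, against 0.492%), or 23.3% and 46.5% of the RCH genes. Opposite calls there numbered 8 (0.568%, against 0.492% of all genes) and 26 (1.38%, against 1.47%). Genes over 300 kb were lower with sh2 in 18.9% of 396 in RS411, against 5.91% of all protein-coding genes there, and in 2.22% of 496 in RCH, against 0.645%. In RCH 2.62% of them were higher with sh2, more than were lower, against 1.74% of all protein-coding genes.

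MAGI1 was lower with sh2 in RS411 as in SEM, at 28.4, 24.7 and 24.9 CPM in sh2 cells and 46.0, 37.7 and 45.0 CPM in sh5 cells, against 23.5, 17.6 and 25.1 CPM in NT cells (-0.72 ± 0.08, adjusted p = 4.19e-05). In RS411 its sh2 libraries lay beside NT, where in SEM they lay below. WSB2, a ubiquitin ligase adaptor, was called lower in all 3 lines: 18.4 ± 1.11 against 43.8 ± 1.78 CPM in SEM, -0.55 ± 0.10 on the log2 scale in RS411 (adjusted p = 0.00298) and -0.65 ± 0.12 in RCH (adjusted p = 0.0305). The SPATS2L fold change pointed lower in all 3, at -1.74 ± 0.07, -0.29 ± 0.06 and -0.82 ± 0.18 in SEM, RS411 and RCH. Its libraries overlapped in RS411 (72.2, 59.7 and 91.6 CPM with sh2, 93.7, 79.3 and 97.1 CPM with sh5). They overlapped in RCH too (16.8, 26.5 and 41.6 CPM with sh2, 40.5, 42.1 and 62.7 CPM with sh5). CCNA1, a cyclin of germ and leukaemia cells, FRY and SCCPDH were lower in SEM and RS411, and CHST15, LGR6, FLNA, MAST3 and FAM49A were higher in both. In RS411 CCNA1 was scarce, at 0.314, 0.158 and 0.331 CPM with sh2 and 0.718, 0.377 and 0.914 CPM with sh5, so its value there is uncertain. CHST15, a sulfotransferase, had 169, 183 and 146 CPM with sh2 and 118, 119 and 132 CPM with sh5 in RS411 (0.43 ± 0.07, adjusted p = 0.00404) and averaged 78.9 ± 5.89 and 39.0 ± 4.95 CPM in SEM (1.02 ± 0.06). ATP10A was higher with sh2 in SEM (1.18 ± 0.07) and RS411 (0.31 ± 0.06) and lower in RCH (-0.61 ± 0.12, adjusted p = 0.0302), so the lines did not all point one way.

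A joint fit of all 27 libraries called 2294 of 20225 genes (11.3%) for the mean difference over the 3 lines, 1099 higher and 1195 lower with sh2, or 5.43% and 5.91%. It called 472 genes (2.33%) for the difference of SEM from the mean of RS411 and RCH, 136 higher (0.672%) and 336 lower (1.66%). CTSW was called for the mean, at 1.98 ± 0.18 in SEM, 1.12 ± 0.17 in RS411 and 2.02 ± 0.58 in RCH (mean over lines adjusted p = 4.33e-06), though in RCH it had 0.058 to 0.61 CPM and was not called. EYA4 pointed the other way in RCH, with 11.9, 14.7 and 13.8 CPM in sh2 cells and 23.2, 32.0 and 27.4 CPM in sh5 cells (-1.03 ± 0.20, adjusted p = 0.0367). PLCB1, 17.95-fold lower with sh2 in SEM, had 162, 153 and 162 CPM with sh2 and 194, 176 and 182 CPM with sh5 in RS411, where it was more abundant than in SEM (-0.21 ± 0.08, adjusted p = 0.13). TENM3 in RCH had 9.64, 12.8 and 16.0 CPM with sh2 and 20.7, 25.4 and 21.2 CPM with sh5 (-0.83 ± 0.16, adjusted p = 0.0339), the same direction as in SEM at a smaller size. ISG20, lower with sh2 in SEM, differed by -0.11 ± 0.07 in RS411 and 0.66 ± 0.22 in RCH, neither called, and its SEM value differed from the mean of the 2 (adjusted p = 7.49e-06).

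**Figure D5:**
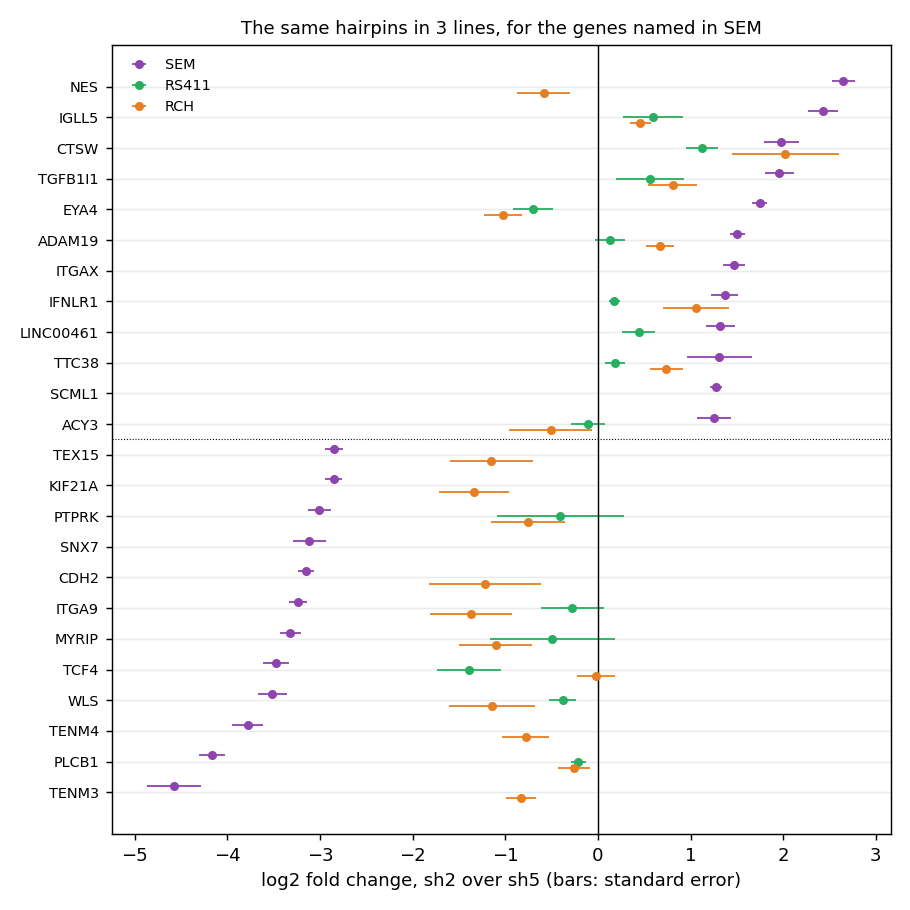
Log2 fold change of sh2 over sh5 (horizontal axis; bars are the standard error) in SEM, RS411 and RCH for the 24 genes highest and lowest in SEM, above and below the dotted line; a missing point means that the gene was too low to test in that line. The lowest genes in SEM lie at -2.85 or below there and between -1.39 and -0.02 in the other lines, and EYA4 lies at 1.75 in SEM, -0.70 in RS411 and -1.03 in RCH.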

How the data were processed

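RNA was extracted with RNeasy columns and made into stranded total RNA libraries with removal of ribosomal RNA, per the labels' protocols. The deposited values are raw counts of reads on each gene in each library; Trimmomatic, STAR, featureCounts and hg19 are named in the submitters' processing notes, while their versions and the strand setting of the counting were not given in the sources used here. The 9 SEM libraries with sh2, sh5 or NT were fitted together in edgeR 4.0.16 (R 4.3.3): TMM factors, edgeR's filter on low counts by hairpin, a robust quasi-likelihood fit with hairpin and replicate number as terms (4 residual degrees of freedom), an F-test and Benjamini-Hochberg adjustment over 17042 genes, with calls at an adjusted p under 0.05. RS411 and RCH were fitted in the same way, and all 27 libraries jointly. In SEM, libraries with the same number deviated together from their group means (correlations 0.115 to 0.290, against -0.190 to 0.011 for different numbers), and likewise in RS411 (0.123 to 0.329) while in RCH not every pair passed the minimum of 0.1 (-0.071 to 0.620).

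SEM libraries held 32583013 to 39562010 reads. RS411 held 27826387 to 67796769 and RCH 21941718 to 55001132 reads. The 27 date-like names, which no longer identify a gene, were left out (0.230% of SEM reads). Genes named are NSD2, the 12 highest and 12 lowest called genes that had at least 5 CPM in the higher group and no overlap, genes called alike in another line or in opposite directions against NT, and members of the gene lists. The comparison, members and lists were chosen with earlier results of these data known. Alternatives were RLE and upper-quartile factors, no filter, a stricter filter (1 CPM in 3 libraries), no replicate block, DESeq2 1.42.0, limma-voom (limma 3.58.1), the 6 sh2 and sh5 libraries alone, each library left out, and a 2-fold minimum. The fit was also run on simulated data, which held no replicate effect and so could not test the use of the block. Some members of the lists are counted but not named here.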

Additional observations from a re-analysis of the deposited data

Results flagged for a closer look

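For 12 of the 24 genes highest or lowest with sh2 in SEM, the difference between the hairpins in SEM itself differed from the mean of RS411 and RCH. This was the contrast of lines in the joint edgeR fit, which called 2.33% of all genes. On the log2 scale, SEM minus that mean was 2.02 ± 0.49 for NES (SE, adjusted p = 0.0286), 1.89 ± 0.27 for IGLL5 (adjusted p = 0.000264), 2.59 ± 0.25 for EYA4 (adjusted p = 6.09e-06) and 1.09 ± 0.17 for ADAM19 (adjusted p = 0.000767). It was 4.35 ± 0.72 for SCML1 (adjusted p = 0.00168) and 1.58 ± 0.32 for ACY3 (adjusted p = 0.00685). Among genes lower with sh2 it was -3.81 ± 0.80 for TENM3 (adjusted p = 0.0109), -3.95 ± 0.22 for PLCB1 (adjusted p = 8.41e-09) and -2.79 ± 0.51 for WLS (adjusted p = 0.00673). It was -2.78 ± 0.42 for TCF4 (adjusted p = 0.00206), -2.57 ± 0.59 for MYRIP (adjusted p = 0.0337) and -2.45 ± 0.47 for ITGA9 (adjusted p = 0.0100).

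The genes were chosen for their size in SEM, which favours a larger value there. PLCB1 and EYA4 were well measured in the other lines, PLCB1 with 22512 and 22145 reads over the sh2 and sh5 libraries of RS411 and EYA4 with 1048 and 2700 in RCH. SCML1 had 0 and 14 reads with sh2 and sh5 in RS411 and 5 and 14 in RCH, so its fitted value depends on the prior count and is no measure of size. In RS411 NES had 26 and 6 reads and TENM3 4 and 6, and their values there carry little weight. The RCH sh2 libraries were unlike one another for the genes listed as lower, all of which rose from replicate 1 to 3. ITGA9 had 1.64, 4.04 and 8.96 CPM, against 9.75 to 12.9 CPM with sh5, and WLS 2.01, 9.25 and 14.6 CPM, against 12.7 to 19.8 CPM. NSD2 rose likewise, at 142, 205 and 252 CPM, while EYA4 and ADAM19 did not rise steadily. The RCH mean thus hides this spread, and a link to the NSD2 level was not tested.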

How the results depend on the processing

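Without the replicate block, edgeR called 2105 genes between sh2 and sh5 in SEM, 738 higher and 1367 lower, and 99 in RS411, 0 in RCH (1714 at an unadjusted p under 0.05), 954 for the joint mean and 177 for the difference of SEM; NSD2 kept its call (adjusted p = 0.00425), and 15 of the 95 other genes followed lost theirs, among them CD38, BTG2, SREBF2, PFKFB4 and LIN28B. A 2-fold minimum left 572 genes, 105 higher and 467 lower. Leaving out 1 library gave 2379 to 4004 genes, 976 to 1757 higher and 1403 to 2247 lower, with the fewest higher genes without sh2 replicate 1, and an NSD2 log2 fold change of 0.27 to 0.32. RLE factors gave 3553 genes, upper-quartile factors 3583, no filter 3525, the stricter filter 3556, limma-voom 3490, DESeq2 2905 (2884 shared with the 3532) and the 6 libraries alone 4027. The share of genes over 300 kb called lower was 38.8% without the block and 37.6% to 47.7% with a library left out. No fold change followed changed direction, but the balance of higher to lower calls did in these lists: drug handling (3 to 6) became 5 to 3 without sh5 replicate 2 and 3 to 2 without sh2 replicate 3; the stress response (3 to 5) 4 to 1 without sh2 replicate 3 and 3 to 1 without sh5 replicate 3; NF-kappaB (5 to 4) 4 to 5 without the filter and 3 to 4 without sh5 replicate 2; glucocorticoid genes (8 to 4) 0 to 4 without the block; the unfolded protein response (2 to 1) 0 to 1 without the block and 1 to 2 without sh2 replicate 2; KMT2A fusion targets (4 to 3) 3 to 4 without sh5 replicate 3. Repair genes (3 to 4) held more higher than lower calls without the block (3 to 1) and without sh2 replicate 1 or 2 or any 1 sh5 library. Depth limits the genes under about 1 CPM, and the strand setting of the counting leaves overlapping genes uncertain.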
